A study of Mus musculus with 3 samples.

Results

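The constitutive proteasome subunits were taken by name: protein-coding genes whose symbol begins with Psma, Psmb, Psmc or Psmd and a digit, leaving out the inducible catalytic subunits Psmb8, Psmb9 and Psmb10. Symbol and biotype were read from the transcript names in the tables. The rule found 37 of the 55536 genes, on 16 chromosomes. Of these, 31 encode subunits present in cells of most tissues: 7 of the alpha ring (Psma1 to Psma7), 7 of the beta ring (Psmb1 to Psmb7), 6 ATPases of the base (Psmc1 to Psmc6), 3 non-ATPases of the base (Psmd1, Psmd2 and Psmd4) and 8 of the lid (Psmd3, Psmd6, Psmd7, Psmd8, Psmd11, Psmd12, Psmd13 and Psmd14). They are called the ubiquitous subunits here. Another 3 (Psmd5, Psmd9 and Psmd10) encode chaperones that assemble the base, and 2 encode tissue-restricted core subunits, Psma8 of germ cells and Psmb11 of the thymus. The last, Psmc3ip, shares the name but encodes a recombination cofactor and no proteasome subunit.

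The proteasome degrades proteins tagged with ubiquitin in the cytosol and nucleus. Its core particle is a barrel of alpha and beta rings with the proteolytic sites inside. The regulatory particle on its ends binds the ubiquitin chain (base), removes it (lid) and unfolds and threads the protein into the barrel (base ATPases). In macrophages it also degrades the inhibitor that holds NF-κB in the cytosol and supplies peptides for MHC class I, and interferon replaces the catalytic beta subunits with inducible ones in newly made cores.

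Total RNA, depleted of ribosomal RNA, was sequenced from the cytosol of macrophages derived from the bone marrow of C57BL/6J mice. All cells were in 1 group: lipid A, the part of lipopolysaccharide that Tlr4 binds, was given at 100 ng/ml for 12 hours, removed for 12 hours and given again at 100 ng/ml for 60 minutes. The group had 3 libraries (replicates 1, 2 and 3), each from 1 µg of RNA. Per the labels these are separate biological samples with a shared donor entry, and the animals are not named, so p-values measure only the spread between these samples, which may be technical. Cells without lipid A or with a single dose were not analysed here, and the values are levels and not responses to lipid A.

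The libraries held 50807046, 53364168 and 46546422 expected counts on genes (replicates 1, 2 and 3). In that order, 3 counts corresponded to 0.059, 0.0562 and 0.0645 CPM, which are counts scaled to a common total. The macrophage markers checked (Adgre1, Csf1r, Cd68, Lyz2, Itgam, Fcgr1, Mertk and Cd14) stood above 10 TPM in 8 of 8 cases, where TPM is abundance per transcript length scaled to a fixed total. None of the neutrophil, B cell, T and NK cell, dendritic, stromal, erythroid, thymic epithelial or germ cell markers did. Replicate 3 had the most RNA of kinds held in nuclei, with Malat1 at 112, 90.6 and 452 TPM in replicates 1, 2 and 3 and the 7SK RNA Rn7sk at 27778, 26912 and 68232 TPM. The 7SL RNA held 58.4%, 63.7% and 58.5% of TPM and nuclear coding genes 34.5%, 29.0% and 27.5%. The TPM of a messenger RNA is a share of the same fixed total as these RNAs.

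All 31 ubiquitous subunits stood above 10 TPM. Adjusted p lay between 2.26e-07 and 0.000269 (limma on log2(TPM + 1), n = 3, Benjamini-Hochberg over 20685 genes), against 16.9% of all genes tested that were above that level. Their mean levels ran from 18.5 TPM for Psmd12 to 138 TPM for Psmb6, and placed them above 83.0% to 97.7% of the 14374 coding genes with TPM above 0. For 27 of the 31 the mean lay within 2-fold of their common median of 41.2 TPM. Among the other members, the base chaperone Psmd10 also passed the test, which brought the count to 32 of the 36 members with TPM above 0. In the second set of deposited tables, made directly from the reads, TPM of the subunits was lower, at a median of 0.452 times the first, and 25 of the 31 stood above 10 TPM. The calls lost there were those of Psmd1, Psmd3, Psmd6, Psmd11, Psmd12 and Psmd13, with adjusted p between 0.055 and 0.88 (limma). Psmd5, Psmd9, Psma8 and Psmc3ip were below 10 TPM, and Psmb11 was listed at 0 in every library of the first set.

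**Figure D1:**
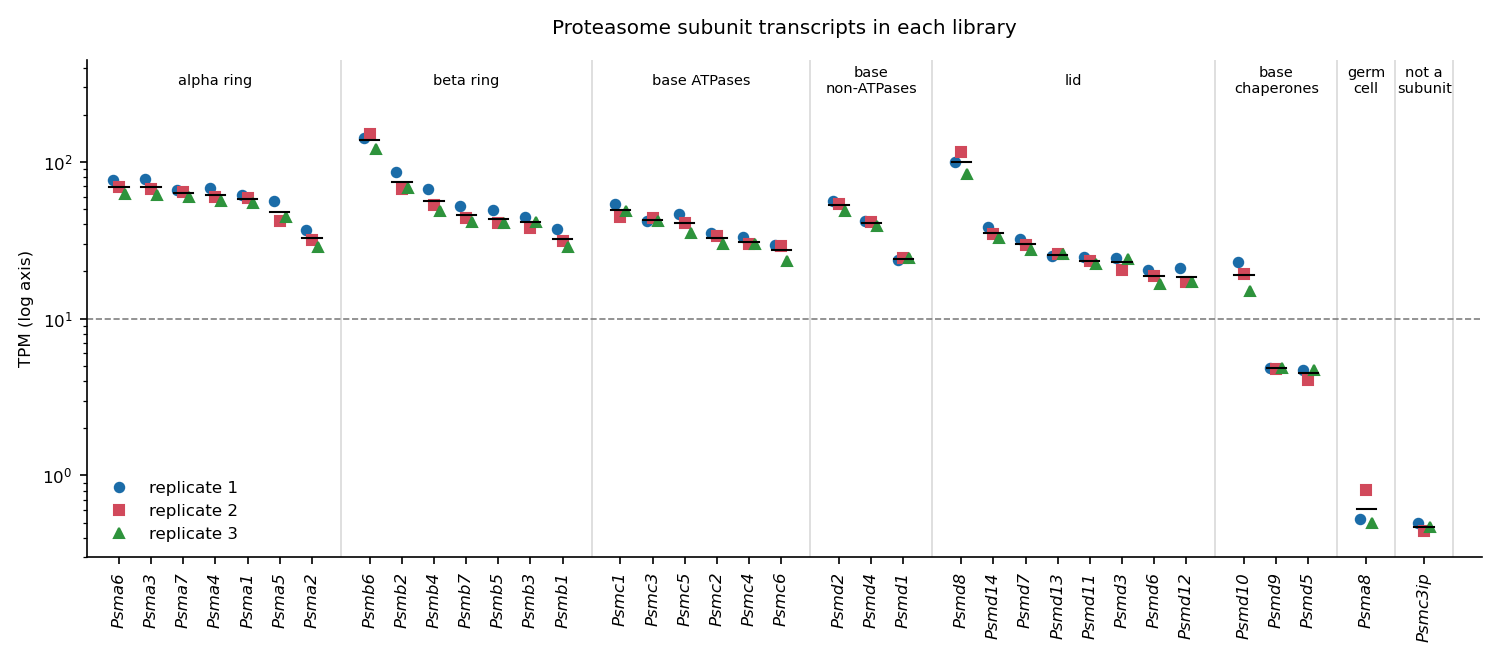
TPM (log axis) of the 36 members with TPM above 0 in replicates 1 (circles), 2 (squares) and 3 (triangles), with their mean as a short line, grouped by the place of the protein in the proteasome. The dashed line is 10 TPM, and all 31 ubiquitous subunits and Psmd10 lie above it in every library.

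The alpha ring, which gates the entry to the barrel, had the highest median of the groups. It was 60.8 ± 5.24 TPM (SD, n = 3) over the 7 members, and the highest member stood 2.14-fold above the lowest. Psma6 was the highest at 77.0, 68.7 and 62.8 TPM in replicates 1, 2 and 3, followed by Psma3 at 77.5, 67.3 and 61.7 TPM. The order is that of whole genes, and in Psma3 coding transcripts held only 51.4% of the TPM. Psma2 was the lowest at 36.9, 31.9 and 28.7 TPM. Psma7, Psma4, Psma1 and Psma5 lay between, at means of 63.5 ± 3.36, 61.5 ± 6.34, 58.2 ± 3.54 and 47.7 ± 7.63 TPM. Within each library Psma6 and Psma3 were above Psma7 and Psma4, these were above Psma1, and Psma5 and then Psma2 came last. Psma6 and Psma3, and likewise Psma7 and Psma4, changed places between libraries. That order was of the first set of tables. In the second set Psma6 and Psma7 led by the mean, at 30.7 and 29.3 TPM against 27.8 for Psma3. In replicate 2 of that set Psma3, at 26.2 TPM, lay below Psma7, Psma4 and Psma1 (32.5, 29.9 and 29.6 TPM).

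The beta ring holds the proteolytic sites in Psmb5 (chymotrypsin-like), Psmb6 (caspase-like) and Psmb7 (trypsin-like), while Psmb1 to Psmb4 are structural. Its median was 46.0 ± 5.83 TPM, and Psmb6 (ENSMUSG00000018286.6, mm10 chr11:70525367-70527858) stood apart at 143, 151 and 120.0 TPM. No other ubiquitous subunit reached its level in any library, the nearest being the lid subunit Psmd8. The other catalytic subunits were near the group's median: Psmb5 stood at 49.1, 40.5 and 40.5 TPM (chr14:54614119-54618022) and Psmb7 at 52.5, 44.0 and 41.2 TPM (chr2:38588036-38644087). Psmb6 was therefore higher than each of its catalytic partners in all 3 libraries. Among the structural subunits Psmb2 was the highest at 86.6, 67.4 and 68.3 TPM and Psmb1 the lowest at 37.1, 31.4 and 28.4 TPM. Psmb4 and Psmb3 stood at 56.1 ± 9.37 and 41.2 ± 3.47 TPM.

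The base ATPases form the hexameric ring that unfolds substrates and opens the alpha gate, and their genes differed least in level, 1.80-fold from lowest to highest, with a median of 36.1 ± 3.19 TPM. Psmc1 was the highest at 53.9, 44.4 and 48.9 TPM. Psmc6 was the lowest at 29.5, 28.9 and 23.4 TPM. Psmc3, Psmc5, Psmc2 and Psmc4 stood at 42.8 ± 1.16, 40.7 ± 5.69, 32.8 ± 2.83 and 30.98 ± 1.76 TPM. Psmc1 lay above Psmc2 and Psmc4 in every library, and Psmc6 below both, while the libraries of Psmc2 and Psmc4 overlapped. In the second set of tables Psmc6 was not the lowest, at a mean of 15.1 TPM against 14.8 for Psmc2 and 13.7 for Psmc4. Psmc6 lay above both there in replicate 2, at 19.4 against 16.7 and 14.7 TPM.

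The 3 non-ATPases of the base had a median of 40.8 ± 1.49 TPM. Psmd2, a large scaffold that docks ubiquitin shuttle proteins, stood at 56.6, 53.8 and 48.4 TPM. Psmd4, a receptor for ubiquitin chains, stood at 41.9, 41.3 and 39.1 TPM. Psmd1, the other large scaffold and the seat of the ubiquitin receptor Adrm1, stood at 23.6, 24.2 and 24.3 TPM. The scaffolds Psmd1 and Psmd2 thus differed 2.21-fold in mean TPM, without overlap of libraries.

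The lid, which carries the deubiquitinase Psmd14, had the lowest median of the ubiquitous groups, 24.8 ± 0.221 TPM, and the widest spread, 5.38-fold. Its upper end was Psmd8 (ENSMUSG00000030591.17, chr7:29174188-29180701), a structural subunit that joins the lid last, at 99.9, 115 and 83.2 TPM. Psmd14 followed at 38.6, 34.8 and 32.9 TPM and its catalytically inactive partner Psmd7 at 32.4, 29.4 and 27.4 TPM. The libraries of Psmd8 did not overlap with those of any other lid subunit. The structural subunits Psmd13, Psmd11 and Psmd3 stood at 25.6 ± 0.387, 23.4 ± 1.18 and 23.0 ± 2.16 TPM, and Psmd6 and Psmd12 at 18.6 ± 1.94 and 18.5 ± 2.18 TPM. These are levels of whole genes, and in Psmd13 coding transcripts held only 63.0% of the TPM.

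The base chaperones, which bind ATPases and guide the assembly of their ring, were unequal. Psmd10, also called gankyrin, stood at 22.8, 19.4 and 14.9 TPM. Psmd9 stood at 4.82, 4.77 and 4.83 TPM and Psmd5 at 4.71, 4.08 and 4.73 TPM, both below 10 TPM (limma, adjusted p = 1.88e-05 and 1.63e-05). Without replicate 2 the call for Psmd10 was lost (limma, adjusted p = 0.051), with its level still above 10 TPM. After TPM was rescaled to a fixed total over nuclear coding genes, Psmd5 and Psmd9 stood above 10 units, so their place below it holds for TPM as deposited.

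Of the tissue-restricted subunits, Psma8 was detected at a low level and Psmb11 had 0 counts in the first set of tables. The second set listed Psmb11 at 0.0062, 0.0038 and 0.014 TPM in replicates 1, 2 and 3. Psma8, the germ cell counterpart of Psma7, had 54, 100 and 44 counts in replicates 1, 2 and 3, or 0.53, 0.81 and 0.50 TPM, against 66.6, 64.0 and 60.0 TPM for Psma7. Psmb11, the thymic counterpart of Psmb5, had 0 counts in all 3 libraries, which allows up to 0.059, 0.0562 and 0.0645 CPM, a limit that covers counting error only. The germ cell markers Ddx4, Sycp3 and Dazl summed to 0.94, 0.43 and 0.35 TPM, and of the 3 thymic epithelial markers Foxn1 and Epcam were at 0 while Prss16 stood at 0.17, 0.38 and 0.25 TPM. Psmc3ip, the recombination cofactor, stood at 0.50, 0.44 and 0.47 TPM. Its gene overlaps Mlx, at 15.4, 13.5 and 12.2 TPM on the opposite strand, and without a stated strand setting reads of the overlap cannot be told apart.

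Core subunits stood above regulatory subunits in TPM, but hardly in reads. The median over the 14 core subunits was 63.9, 56.0 and 51.6 TPM and that over the 17 regulatory subunits 33.01, 29.99 and 29.7 TPM, a ratio of 1.94, 1.87 and 1.74 (1.85 ± 0.101, SD, n = 3). The ratio of median expected counts was only 1.13, 1.09 and 1.03 (1.08 ± 0.052). TPM divides counts by the effective length of the transcript, and core subunits are small proteins with short messages. Across the 31 subunits the TPM fell with mean effective length (Spearman rho = −0.69) while the counts were weakly related to it (rho = 0.218). Across the 14374 coding genes with TPM above 0, of a far wider range in level, the rho for counts was 0.254 and that for TPM −0.0081. Across the 2108 coding genes in the TPM range of the subunits, the rho for counts was 0.755 and that for TPM −0.168. Choosing genes by a range of TPM itself ties their counts to length. The points share libraries and the length itself enters TPM, so these are descriptions across genes.

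**Figure D2:**
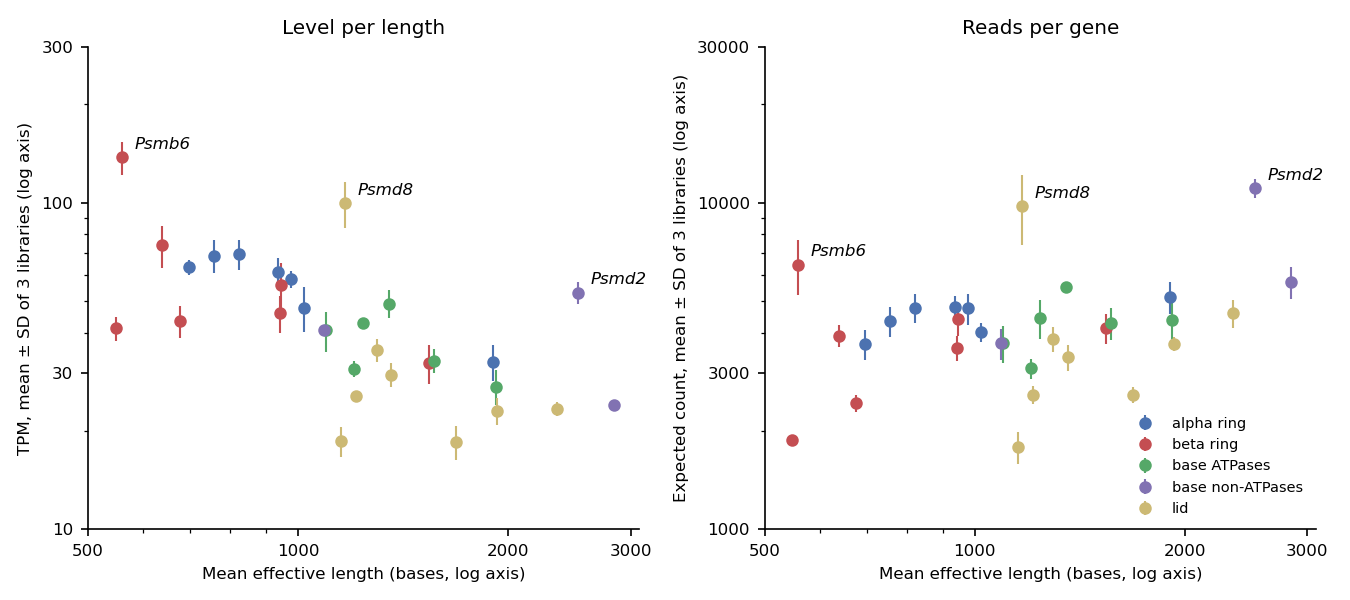
Mean TPM (left) and mean expected count (right) of the 31 ubiquitous subunits against mean effective length in bases, all axes logarithmic, coloured by group, with bars for the SD of 3 libraries. TPM is lower for longer subunits, while the median counts of the 5 groups lie between 3463 (lid) and 5702 (base non-ATPases), with Psmb6, Psmd8 and Psmd2 named.

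The subunits were closer to one another in reads per gene than in TPM. The middle 50% of the 31 mean counts spanned 0.38 on the log2 scale, and that of their TPM 0.91. Psmd2 had the most reads, with 11141, 11798 and 10344 counts in replicates 1, 2 and 3, and Psmd6 the fewest, with 1779, 1990 and 1587. The median effective length was 677 bases in the beta ring, 936 in the alpha ring, 1296 for the ATPases, 1328 in the lid and 2522 for the base non-ATPases. Psmb6 and Psmd8 were high on both scales, with 5935, 7872 and 5562 counts for Psmb6 and 8782, 12464 and 8067 for Psmd8.

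Replicates differed little in the subunits. After scaling by trimmed mean of M-values (TMM), the highest library exceeded the lowest by a median of 1.11-fold over the 31, and by under 1.2-fold in 26 of them. The range ran from 1.03-fold in Psmd2 to 1.35-fold in Psmd8. The biological coefficient of variation (BCV, edgeR tagwise) had a median of 10.9%, from 10.5% in Psmc4 to 15.1% in Psmd8. Over all 13075 genes tested its median was 14.2%, and over the 3536 genes with mean counts in the range of the subunits it was 11.7%. Tagwise values are drawn toward those of genes of similar level, so they are not the spread measured in each gene alone. Psmc4 had 10.5% although it stood at 60.5, 62.2 and 62.8 TMM-scaled CPM in replicates 1, 2 and 3. The difference between 10.9% and 11.7% was not tested.

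With counts this deep, even small differences exceeded counting noise. A chi-square test of the counts against the TMM library sizes (adjusted p under 0.05, Benjamini-Hochberg over all genes) called 28 of the 36 members with counts, and 26 of the 31 ubiquitous subunits. It called 67.2% of all genes tested and 88.3% of genes with mean counts in the same range, so the members' share was near that of genes equally deep. The call was not reached by Psma4, Psmb5, Psmc4, Psmd7 and Psmd14 among the ubiquitous subunits, nor by Psmd5, Psmd9 and Psmc3ip. Without replicate 1, 2 or 3 the count of members called was 21, 20 and 22, and that of all genes fell from 8786 to 6492, 6078 and 6374.

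By chi-square, which grows with depth, Psmd8 and Psmb6 differed most between libraries, and both were highest in replicate 2. Psmd8 stood at 178, 231 and 171 TMM-scaled CPM in replicates 1, 2 and 3 (chi-square 573, adjusted p = 1.09e-123). Psmb6 stood at 120, 146 and 118 TMM-scaled CPM (chi-square 194, adjusted p = 6.85e-42). Replicate 2 carried most of both: without it the chi-square was 6.99 for Psmd8 (adjusted p = 0.019) and 1.24 for Psmb6 (adjusted p = 0.37). By the same measure Psmd1 came next, at 102, 116 and 123 TMM-scaled CPM, lowest in replicate 1 (chi-square 101, adjusted p = 8.02e-22), and fell to a chi-square of 8.50 without that replicate (adjusted p = 0.0085). By fold between the highest and lowest library, the order was another: 1.99 for the low Psma8, 1.35 for Psmd8, 1.32 for the chaperone Psmd10 and 1.24 for Psmb6. Psmd10 was lowest in replicate 3, and without it the call was lost (chi-square 2.11, adjusted p = 0.22). Stromal markers also were highest in replicate 2, with Col1a1 at 0, 2.53 and 1.28 TPM and the sum of the 4 markers at 0.04, 5.06 and 2.30 TPM, and their part in these differences was not tested. The chi-square p-values rest on the reads of these libraries alone.

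The order of the libraries depended on the scale. In TPM as deposited, 26 of the 31 subunits were highest in replicate 1 and 22 lowest in replicate 3. Rescaled to a fixed total over nuclear coding genes, 19 were lowest in replicate 1 and 16 highest in replicate 2. With TMM, 12, 13 and 6 were highest in replicates 1, 2 and 3. The 31 subunits summed to 1572, 1443 and 1328 TPM, to 0.456%, 0.498% and 0.483% of coding TPM, and to 2705, 2778 and 2650.1 TMM-scaled CPM. A common rise or fall of the subunits between replicates was therefore not stable across scales. The part of the nuclear RNA in replicate 3 in the low TPM there was not tested.

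**Figure D3:**
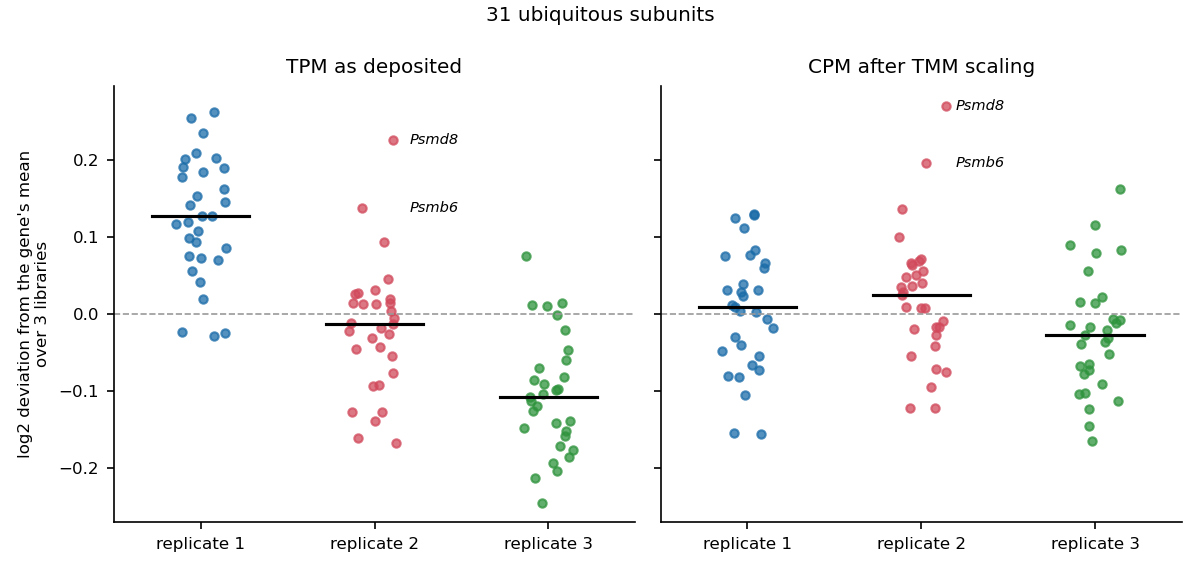
log2 deviation of each of the 31 ubiquitous subunits from its mean over 3 libraries, in TPM as deposited (left) and in TMM-scaled CPM (right), with the median of each library as a line. The medians are 0.13, −0.01 and −0.11 in TPM and 0.01, 0.02 and −0.03 after TMM scaling, with Psmd8 and Psmb6 highest in replicate 2 on both.

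At the catalytic sites, the constitutive subunits stood below their inducible counterparts at 2 sites of 3. Psmb5 stood at 49.1, 40.5 and 40.5 TPM against 239, 166 and 175 TPM for Psmb8, and Psmb7 at 52.5, 44.0 and 41.2 TPM against 207, 151 and 142 TPM for Psmb10. The inducible transcript was 4.43 ± 0.4 times the constitutive one at the chymotrypsin-like site and 3.61 ± 0.294 times at the trypsin-like site, and lower in 0 of 3 libraries. At the caspase-like site the order was the other way, with Psmb6 at 143, 151 and 120.0 TPM against 78.9, 63.3 and 55.2 TPM for Psmb9, a ratio of 0.477 ± 0.0688. On the log2(TPM + 1) scale, constitutive minus inducible was −2.12 ± 0.13, −1.83 ± 0.12 and 1.06 ± 0.20 at the 3 sites in that order (SD, n = 3). With 3 libraries an exact two-sided sign-flip test cannot go below p = 0.25, so these are given as differences with their spread. Messenger levels do not give the makeup of assembled proteasomes, which was not measured.

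**Figure D4:**
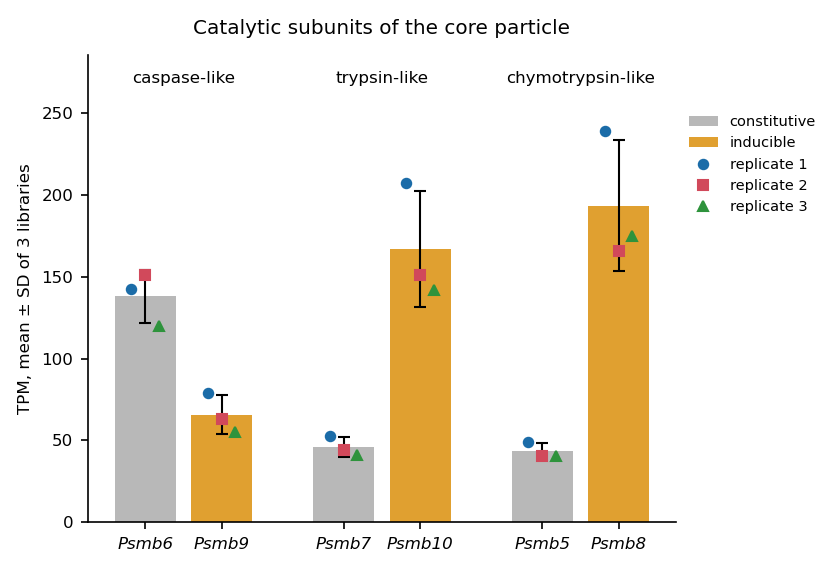
TPM of each constitutive catalytic subunit (grey bars) and its inducible counterpart (orange bars), as the mean with the SD of 3 libraries and a point for each library. Psmb9 lies below Psmb6 in every library, while Psmb10 and Psmb8 lie above Psmb7 and Psmb5.

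Most subunit genes were read from 1 main transcript. In 24 of the 31 ubiquitous subunits the leading transcript held over 90% of the gene's TPM. The median over the 31 was 98.1%, and the leading transcript was a coding one in 30. Of the 24, Psmb1, Psmc6 and Psmd12 were under 90% in the second set of tables, at 84.6%, 69.9% and 79.0%. Psma3 and Psmd13 were the members in which no transcript reached 50% in the mean over libraries, and without replicate 2 only 1 of them, Psmd13, stayed under it. In Psma3 (chr12:70974621-70996347) the coding Psma3-204 held 45.1%, 44.6% and 55.4% in replicates 1, 2 and 3. The retained-intron transcript Psma3-203 held 28.8% ± 4.33 and Psma3-201, annotated for nonsense-mediated decay, 17.8% ± 2.56. All coding transcripts together held 51.4% ± 6.54 of its TPM, so the level of the whole gene exceeds that of its coding messenger RNA. In the second set of tables Psma3-203 led and the coding share was 37.5%.

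In Psmd13 (chr7:140881968-140898643) Psmd13-211, annotated for nonsense-mediated decay, held 31.9%, 39.3% and 36.8%, and the coding Psmd13-201 held 40.9%, 29.7% and 32.8%. Either led in at least 1 library, so their order was not resolved, and coding transcripts held 63.0% ± 3.56 in all. Psma2 was divided between 2 coding transcripts, Psma2-202 of 1353 bases at 50.5% ± 4.52 and Psma2-201 of 2911 bases at 49.5% ± 4.52. Psmd4 had coding transcripts at 65.3% and 33.4%, Psmc3 at 77.9% and 16.5%, and Psmb6 a retained-intron transcript, Psmb6-202, at 14.4% ± 3.77 beside its coding 83.7% ± 3.71. Shares within a gene come from the division of shared reads by the authors' software.

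**Figure D5:**
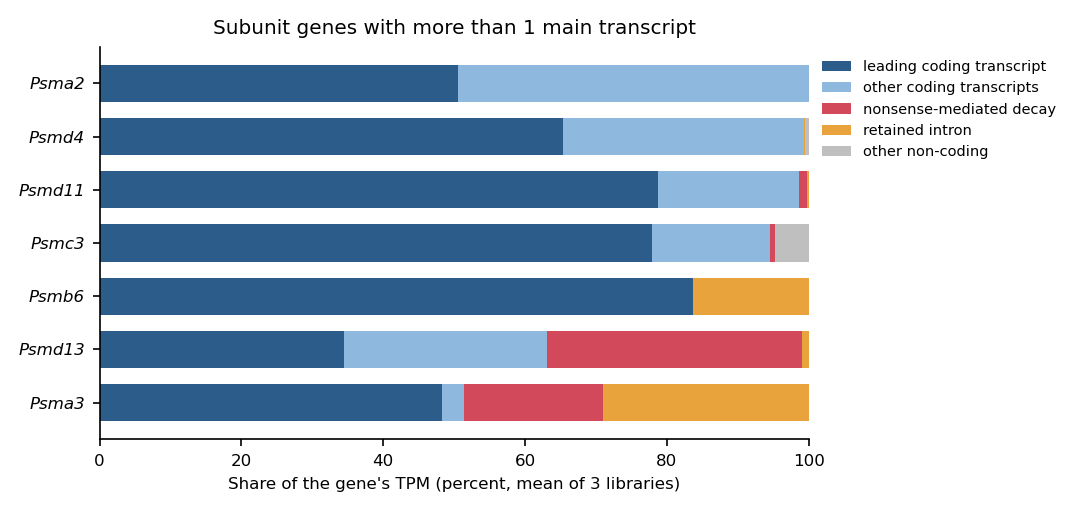
Share of the gene's TPM (percent, mean of 3 libraries) in the leading coding transcript, other coding transcripts and non-coding classes, for the 7 ubiquitous subunit genes with the most divided transcripts. The coding share is lowest in Psma3 (51.4%) and Psmd13 (63.0%).

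Promoter sequence was examined because proteasome genes are known to be induced together by Nfe2l1 through antioxidant response elements. RefSeq windows of 300 bases (250 before and 50 after the start, GRCm38.p6) were found for 30 of the 37 members, with 32 windows in all. The core of that element, TGACNNNGC on either strand, was in 5 of the 32 windows (15.6%) and in 12.4% of all 32851 windows. The matches are shown for the members that hold one, with 10 bases on each side where the window and the start allow, on the gene's strand, and the match in capitals (as its reverse complement in Psmc6 and Psmd12).
Psmb5: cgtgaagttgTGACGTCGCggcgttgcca
Psmb6: ctaaagagagTGACGGAGC
Psmd9: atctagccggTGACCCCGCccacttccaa
Psmc6: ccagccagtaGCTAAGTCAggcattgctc
Psmd12: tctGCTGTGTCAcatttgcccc

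These lie at chr14:54618024-54618052 on the minus strand for Psmb5, and on the plus strand at chr11:70525338-70525356 for Psmb6, chr5:123228149-123228177 for Psmd9, chr14:45329587-45329615 for Psmc6 and chr11:107479278-107479299 for Psmd12. The match ended 39 bases before the start in Psmb5, 1 base before in Psmb6, 23 bases before in Psmd9, 219 in Psmc6 and 239 in Psmd12. The start is that of the RefSeq window, and the site of Psmd9 lies within the GENCODE M21 bounds of the gene (chr5:123169413-123250131). Psmb5, Psmb6 and Psmd9 hold the core on their own strand, and a relation of the matches to level was not tested. A match is a description of the letters and not a bound site, and binding was not measured.

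The CCAAT box (CCAAT) was in 13 of the 32 windows (40.6%) against 37.4% of all windows, and the TATA box (TATAAA) in 3 (9.38%) against 13.6%. The ETS motif CCGGAAG was in 12 windows of 11 members (37.5%) against 8.86% of all windows, counted on either strand. Of the sites that lie wholly before the start, 7 in subunit genes were chosen for display after these counts were seen, again with the match in capitals (as its reverse complement in Psmc1, Psmc2, Psmd2, Psmd11 and Psmd12).
Psmc1: ggtggatgcaCTTCCGGcggtggcgat
Psmc2: cgcggagctaCTTCCGGtggggaagag
Psmd2: ccgcagggcgCTTCCGGtctggaggac
Psmd11: gagggcgggtCTTCCGGgtgt
Psmd12: gagcgggcgaCTTCCGGtgcgagtgac
Psmd6: agagacgcgaCCGGAAGtcagactggc
Psma6: gagccaccacCCGGAAGcccgcggacc

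The ETS matches began 28 bases before the start in Psmc1 (chr12:100110164-100110190), 24 in Psmc2 (chr5:21786713-21786739), 26 in Psmd2 (chr16:20651616-20651642), 11 in Psmd11 (chr11:80428594-80428614), 17 in Psmd12 (chr11:107479501-107479527), 45 in Psmd6 (chr14:14120974-14121000) and 132 in Psma6 (chr12:55398683-55398709). All but Psmd6 are on the plus strand. Psmc2 also had a match 84 bases before another start (chr5:21785181-21785207), which is not shown. The starts are those of the RefSeq windows. The sites shown for Psmc1, Psmc2, Psmd12 and Psma6 lie wholly within the GENCODE M21 bounds of their genes. Of the 11 members with the motif, Psmc1, Psmc2, Psmc6, Psmd2, Psmd4, Psmd6, Psmd11, Psmd12 and Psmd13 encode regulatory subunits and Psma6 a core subunit, and the last is Psmc3ip. Windows were not found for Psma8, Psmb1, Psmb2, Psmb7, Psmc3, Psmd3 and Psmd7.

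Another shared feature of position was a coding neighbour on the opposite strand that starts within 1000 bases upstream, found for 6 of the 37 members (16.2%) and for 6.76% of 22015 coding genes. The pairs were Psmc2 with Dnajc2 (32 bases apart), Psma2 with Mrpl32 (75), Psmc5 with Ftsj3 (75), Psma7 with Ss18l1 (76), Psmb1 with Tbp (137) and Psmd10 with Atg4a (179). The neighbours were lower than the subunit gene in every library, from 0.94, 0.63 and 0.64 TPM in Ss18l1 to 25.2, 19.3 and 20.1 TPM in Dnajc2. In all, 14 of the 37 members (37.8%) overlapped a gene on the opposite strand. Among them were Psmb7 with Nek6 (9.88, 8.46 and 7.37 TPM) and Psmc3 with Slc39a13 (11.0, 6.92 and 9.31 TPM). The share of such overlaps over all coding genes was not counted, so they are not read as a feature of the members. Reads in such overlaps could not be told apart by strand here. The named pseudogenes of Psmb5, Psmb6 and Psmb7 were at or below 0.03 TPM.

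Other genes of the pathway were taken from lists of their known roles. Both subunits that the naming rule misses, Adrm1 (25.2 ± 1.42 TPM) and Sem1 (38.7 ± 8.54 TPM), stood above 10 TPM, in the range of the regulatory particle. Of 5 chaperones that assemble the core, 1 stood above 10 TPM and 3 below. Pomp, which completes the core, stood at 93.9, 83.9 and 79.1 TPM, whereas Psmg1, which with Psmg2 starts the alpha ring, stood at 3.33, 4.02 and 2.64 TPM. Psmg2 and Psmg3 were at 4.10 ± 0.129 and 5.44 ± 0.499 TPM, and Psmg4 at 12.8 ± 4.03 TPM could not be placed (limma, adjusted p = 0.13). As with the base chaperones Psmd5 and Psmd9, these levels were below those of all 31 ubiquitous subunits, Pomp excepted.

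Of 5 genes of alternative caps and the inhibitor, 4 stood above 10 TPM and 1 below. Psme1 and Psme2, which form the interferon-inducible cap of the core, stood at 188, 137 and 154 TPM and at 282, 210 and 221 TPM, above the lid and base subunits in every library. Psme3, a nuclear cap, and Psme4, which acts on histones, stood at 21.4 ± 1.74 and 16.1 ± 2.87 TPM, and the inhibitor Psmf1 at 6.18 ± 0.741 TPM. Among 14 bound enzymes, shuttles and regulators, 9 were above and 3 below. Zfand5, which stimulates the proteasome, was the highest at 37.9 ± 8.62 TPM, and the ligase Ube3c the lowest at 5.06 ± 0.569 TPM. The deubiquitinase Usp14 stood at 20.1, 15.9 and 13.7 TPM and the shuttle Rad23b at 26.3 ± 0.952 TPM.

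Of 7 regulators of subunit genes, 3 stood above 10 TPM and 2 below. Nfe2l1, which raises subunit transcription when proteasome activity falls, stood at 60.2, 56.9 and 56.7 TPM, and Vcp, which extracts it from the endoplasmic reticulum, at 56.9, 58.1 and 56.5 TPM. Nfe2l2, the related oxidative stress factor, stood at 132, 136 and 78.9 TPM, lower in replicate 3 than in the others. Its small Maf partner gene Maff stood at 12.9, 19.7 and 7.31 TPM and could not be placed (limma, adjusted p = 0.34). Of 6 genes for ubiquitin and its activating enzymes, 5 stood above 10 TPM, while the activating enzyme Uba6 stood at 3.57 ± 0.525 TPM and was below.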

How the data were processed

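Total RNA of the cytosolic fraction was measured in 3 libraries of 1 group, with replicate numbers from the labels. Expected counts per gene and transcript and TPM on mm10 with GENCODE M21 were deposited by the authors, as the file headers and each library's deposited text state. A second set of deposited tables, made directly from the reads, gave estimated counts and TPM per transcript. Which aligner and quantifier were used, with which versions and strand option, is not given in the sources used here. TPM divides by effective length and by a total that includes 7SL RNA. The same count therefore gives a higher TPM in a shorter gene, and TPM moves with the share of short RNA.

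Levels were tested against 10 TPM by an intercept-only limma 3.58.1 model of log2(TPM + 1) in R 4.3.3 (trend, robust moderation), over genes above 0 TPM in any library. Low genes are drawn together by the pseudocount of 1. Expected counts were rounded for TMM sizes and BCV (edgeR 4.0.16) and for a chi-square test (2 degrees of freedom, at least 30 counts in sum). Adjusted p under 0.05 made a call. Summaries used pandas 2.3.3, numpy 2.4.6, scipy 1.17.1 and matplotlib 3.10.9. Both tests were checked on simulated data. These had the same spread in all genes for the level test and counting noise alone for the chi-square test, unlike these libraries. Promoter windows came from RefSeq (GRCm38.p6) and were searched on both strands, and those of members were matched by symbol. Expected counts were whole within 0.005 in every library for 25 of the 36 members with counts, and the others had reads divided with other genes.

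Every member was named, with the list genes that were highest or lowest in long lists and the transcripts of genes whose leading transcript held under 50%. Some list genes enter the counts and are not reported here by name. Members, lists and tests were chosen with earlier results of these data known. Alternatives were levels of 1 and 20 TPM, a mean count of at least 10, a pseudocount of 0.1, the second tables, rescaling over nuclear coding genes, total counts, DESeq2 1.42.0 size factors, minimums of 1000 counts or any count, means in place of medians, and leaving out each replicate. The core to regulatory ratio and its alternatives were added after the values were seen. With 3 libraries, no group was large enough for a check for outlying samples.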

Additional observations from a re-analysis of the deposited data

How the results depend on the processing

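The members above the level numbered 34 at 1 TPM, 26 at 20 TPM, 25 in the second tables, where subunits had a median of 0.452 times their TPM, and 31 to 32 with a replicate left out. All genes above it numbered 3494, and 9195 at 1 TPM, 1898 at 20 TPM, 1823 in the second tables and 6770 after rescaling over coding genes. On the log2 scale relative to the level, Psmd5 and Psmd9 moved above it, to 1.46 and 1.54 at 1 TPM and to 0.53 and 0.62 after rescaling. Psmd6, Psmd12 and Psmd10 moved below it, to −0.10, −0.11 and −0.087 at 20 TPM and −0.24, −0.15 and −0.22 in the second tables. Of 14 bound enzymes and shuttles, 3 were above at 20 TPM, 2 in the second tables and all 14 after rescaling. The number of members varying was 26 to 33 over all other settings (all genes 6605 to 10119) and 20 to 22 with a replicate left out (all genes 6078 to 6492).

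The median BCV was 11.4% to 12.4% with a replicate left out. The summed level over the mean of libraries, 1.09 in replicate 1 and 0.917 in replicate 3 as deposited, became 0.951 and 1.01 after rescaling. For replicate 1 it was 0.998 with TMM and 0.969 in the second tables, which gave 1.10 for replicate 2. As means in place of medians, log2(TPM + 1) was 5.82 in the alpha ring, 5.80 in the beta ring, 5.26 for the base non-ATPases and 4.91 in the lid. The second tables gave 4.83, 4.43, 4.27 and 3.68 for these and 4.15 for the ATPases, and a pseudocount of 0.1 gave 4.64 for the lid. Psmb7 minus Psmb10 was −1.64 in the second tables. Genes with no transcript at 50% numbered 1 to 2 with a replicate left out. The core to regulatory ratio was 1.76 in the second tables and 1.80 to 1.90 with a replicate left out. No paired analysis was possible because no other group shares the replicate numbers. The catalytic pairs are differences between genes within a library.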
